A study of Homo sapiens with 12 samples.

Results

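The genes described here are 43 genes of the G1/S transition and of DNA replication. They were taken by name as a fixed list out of the 58233 genes of the count table. The rule itself holds no measured value, but the list was chosen with earlier results of these data known. The counts below therefore describe the list and are not a blind test of it. All 43 were found by symbol, and all 43 passed the filter on low counts that left 15749 genes for testing. By role, 4 act in origin licensing (ORC1, ORC6, CDC6, CDT1), 6 form the MCM2-7 helicase, and 7 activate the helicase or travel with the fork (MCM10, CDC45, GINS1, GINS2, GINS3, GINS4, CLSPN). A further 7 are polymerase and primase subunits (POLA1, POLA2, PRIM1, POLE, POLE2, POLD1, POLD3). The clamp, its loader, single-strand binding and Okazaki fragment processing are represented by 8 genes (PCNA, RFC2, RFC3, RFC4, RFC5, RPA2, FEN1, LIG1), nucleotide supply by 4 (RRM1, RRM2, TYMS, TK1), chromatin copying by 3 (CHAF1A, CHAF1B, UHRF1) and G1/S regulation by 4 (CCND1, CCNE1, CCNE2, E2F1).

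The study profiled MCF10-A, a human breast epithelial line not derived from a tumour, to examine the integrin α6β4 in cells without matrix. There were 3 derivatives, named Vector, B4-4 and Addback, and each had libraries named NA and EDTA, with 2 libraries per combination and 12 in all: Vector NA, Vector EDTA, B4-4 NA, B4-4 EDTA, Addback NA and Addback EDTA. All 6 groups were passaged with 5% horse serum, detached with trypsin and held in serum-free medium on poly-HEMA, a coating to which cells do not attach, for 3 hours before RNA was taken. The sources used here do not give the meaning of NA, the dose and time of EDTA (a chelator of calcium and magnesium), the making of B4-4 and Addback, or whether a derivative is 1 clone. The passage number is labelled unknown. No label says that the 2 libraries of a group came from separate cultures, so the p-values reflect variation between these samples alone, and that variation may be technical. A library is written below as its group and replicate number, for example Vector NA 1.

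Library totals ran from 15685376 to 22156173 counts. ITGB4, which encodes the integrin β4 chain, lay between 182 and 395 CPM (counts relative to library size, with TMM factors) in the 4 B4-4 libraries, between 1060 and 1525 CPM in Addback and between 1678 and 1850 CPM in Vector. Counts of a gene do not separate native from introduced transcripts. All 6 mammary epithelial markers followed (KRT5, KRT14, TP63, CDH1, EPCAM, KRT18) were detected in all 12 libraries, and their summed level was 10066 and 10213 CPM in Vector NA against 6396 to 8694 CPM in the other 10. Of 5 fibroblast markers, COL1A2 was at 0 in 9 libraries with at most 3 counts in the others, while DCN reached 51.9 CPM, and the list summed to between 14.0 and 65.5 CPM with the highest value in Addback EDTA 2. Of 4 blood and endothelial markers, CDH5 was at 0 in all 12 libraries, PTPRC and CD68 had at most 1 and 4 counts, and PECAM1 ran from 3.35 to 34.2 CPM. The part of these markers in the results below was not tested. In bulk RNA, fewer cells in a phase of the cycle and less RNA of these genes per cell cannot be told apart.

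Before a cell enters S phase, the origin recognition complex, CDC6 and CDT1 load the MCM2-7 helicase onto DNA in an inactive form. Cyclin D with CDK4 or CDK6, and then cyclin E with CDK2, phosphorylate the retinoblastoma protein and free E2F transcription factors, which drive many replication genes. CDC45, the GINS complex and MCM10 then turn loaded helicases into moving forks, polymerase α with primase starts each strand, and polymerases ε and δ extend them behind the PCNA clamp that the RFC complex loads.

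E2F factors bind short GC-rich words, so the promoters of the list were read for them. RefSeq promoter windows (GRCh38.p14, 250 bases before to 50 bases after the start) were found for 36 of the 43 genes. The words searched, on both strands, were TTTCGCGC, TTTGGCGC, TTTCCCGC and TTTGCCGC, which overlap each other where a site is a near palindrome. At least 1 word lay in a window of 20 of the 36 genes (55.6%) and in 21 of their 46 windows (45.7%), against 3.31% of all 35114 windows and 4.8% of the 16291 windows of tested genes. The CCAAT box, also on both strands, was in 61.1% of the 36 genes and in 60.9% of their windows. It was in 34.6% of all windows and 34.5% of the windows of tested genes. TTTGAA is the core of the cell cycle element CHR that marks many mitotic genes. It was in 1 of the 36 genes (2.78%) and in 2.17% of their windows. Its shares were 15.2% of all windows and 10.8% of the windows of tested genes. Of 20 matched G2/M genes, 13 (65%, and 60% of their windows) held it and 2 (10%, and 12% of their windows) held an E2F word. These matches are letters in a window and say nothing of whether a factor was bound.

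The 6 promoters below show where E2F words lie. In each role the gene described library by library that holds a word and has the smallest EDTA p was taken, and the 6 genes with the smallest p of these 8 are printed, which leaves out the licensing genes and the regulators. Each runs from 200 bases before to 20 bases after the RefSeq start, 5′ to 3′ along the gene's strand, and capitals mark the E2F words on either strand. UHRF1 lies at chr19:4909301-4909520 on the plus strand (the first of its 3 RefSeq windows), POLA2 at chr11:65261762-65261981 (plus), TYMS at chr18:657453-657672 (plus), MCM6 at chr2:135876424-135876643 (minus), GINS3 at chr16:58392271-58392490 (plus) and LIG1 at chr19:48170325-48170544 (minus).

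UHRF1: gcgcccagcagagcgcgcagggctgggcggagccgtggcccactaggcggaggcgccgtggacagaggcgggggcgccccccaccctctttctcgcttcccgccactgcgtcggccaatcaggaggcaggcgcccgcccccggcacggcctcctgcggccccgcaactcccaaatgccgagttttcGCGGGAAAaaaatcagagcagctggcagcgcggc

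POLA2: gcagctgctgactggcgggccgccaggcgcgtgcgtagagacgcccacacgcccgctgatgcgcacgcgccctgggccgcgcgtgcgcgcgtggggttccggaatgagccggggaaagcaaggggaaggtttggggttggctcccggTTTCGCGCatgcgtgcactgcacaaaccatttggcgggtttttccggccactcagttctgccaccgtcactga

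TYMS: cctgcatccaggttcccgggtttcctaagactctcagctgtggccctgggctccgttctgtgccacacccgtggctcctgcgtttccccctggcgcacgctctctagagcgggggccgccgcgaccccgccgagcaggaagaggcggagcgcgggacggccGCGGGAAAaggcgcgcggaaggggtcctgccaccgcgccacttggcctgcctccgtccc

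MCM6: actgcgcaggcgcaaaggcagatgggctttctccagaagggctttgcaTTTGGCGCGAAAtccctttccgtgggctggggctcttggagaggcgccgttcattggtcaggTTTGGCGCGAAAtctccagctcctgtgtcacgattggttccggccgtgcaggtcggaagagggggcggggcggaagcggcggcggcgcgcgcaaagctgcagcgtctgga

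GINS3: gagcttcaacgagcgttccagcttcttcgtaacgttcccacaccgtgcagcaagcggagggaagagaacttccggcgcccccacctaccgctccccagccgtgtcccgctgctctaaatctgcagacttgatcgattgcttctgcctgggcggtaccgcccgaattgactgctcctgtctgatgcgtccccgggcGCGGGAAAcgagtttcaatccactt

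LIG1: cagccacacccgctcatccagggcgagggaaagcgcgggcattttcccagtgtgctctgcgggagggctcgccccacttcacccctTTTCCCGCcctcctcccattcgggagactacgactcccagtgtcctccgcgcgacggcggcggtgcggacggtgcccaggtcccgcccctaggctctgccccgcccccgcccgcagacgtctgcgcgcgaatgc

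The word begins 14 bases before the start in UHRF1, 53 in POLA2, 39 in TYMS, 5 in GINS3 and 114 in LIG1. MCM6 carries 4 words in 2 palindromic pairs, each pair printed as a run of capitals. The letters GCGGGAAA in UHRF1, TYMS and GINS3 are the word TTTCCCGC read on the other strand.

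Across the 12 libraries the list moved largely as a block. The correlation of a gene's log2 CPM with the mean of the other 42 genes had a median of 0.87, was over 0.8 for 31 genes and under 0 for 3. These 12 points share 6 groups, so the values describe the block and carry no test. The summed level of the 43 genes was 2640 and 2658 CPM in Vector NA and 1993 and 2019 CPM in Vector EDTA. It was 3293 and 2933 CPM in B4-4 NA, 3694 and 3792 CPM in B4-4 EDTA, 3091 and 3078 CPM in Addback NA, and 3632 and 4068 CPM in Addback EDTA. By this sum, the order of the groups ran from Vector EDTA through Vector NA and the NA libraries of B4-4 and Addback, which overlapped each other, to the EDTA libraries of B4-4 and Addback, which also overlapped. The sum gives most weight to abundant genes. By the median log2 CPM of the 43 genes, Vector EDTA was again lowest (5.13 and 5.12). By that median, Vector NA (5.47 and 5.39) and Addback NA (5.38 and 5.47) overlapped. The lowest of the 12 libraries was a Vector EDTA library for 35 of the 43 genes, and the highest was an EDTA library of Addback for 22 and of B4-4 for 13.

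**Figure D1:**
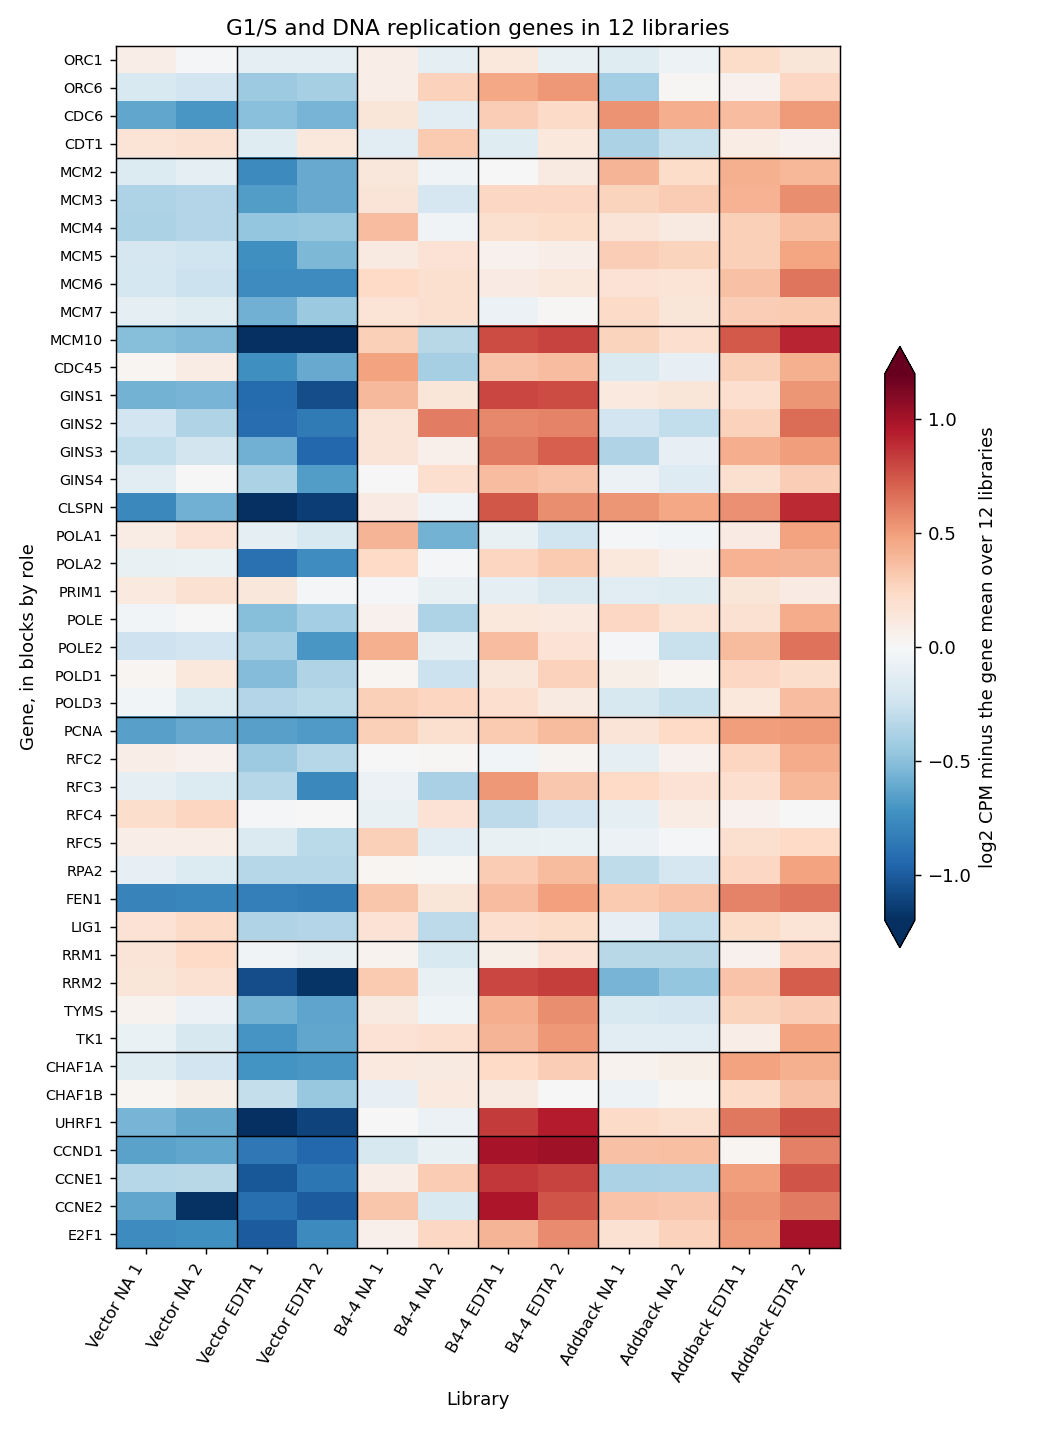
Each row is 1 of the 43 genes, in blocks by role, and each column 1 of the 12 libraries; colour is log2 CPM minus the gene's mean over the 12 libraries. The Vector EDTA columns are the deepest blue for most rows, with the lowest library there for 35 of 43 genes, and RFC4, PRIM1 and CDT1 break the pattern.

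The median shift between replicates was small in 4 groups and larger in 2, though differences up and down cancel in it. The SD of the 43 log2 differences was 0.31 in B4-4 NA, 0.16 in Addback EDTA, 0.15 in Vector EDTA and 0.11 to 0.12 elsewhere. The median difference of the 43 genes between replicate 2 and replicate 1 was at most 0.03 on the log2 scale in size in both Vector groups, B4-4 EDTA and Addback NA. In B4-4 NA it was −0.14, with 30 genes lower in replicate 2: POLA1 was at 70.7 and 36.1 CPM, CDC45 at 47.3 and 25.7 CPM and MCM10 at 36.9 and 24.02 CPM, while GINS2 went the other way at 30.8 and 42.3 CPM. ITGB4 also differed between those libraries, at 182 and 395 CPM. In Addback EDTA the median difference was 0.14, with 34 genes higher in replicate 2, the only library whose description ends in L007 (the other 11 end in L008). The part of that label in the results was not tested.

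Under EDTA, transcripts of much of the replication machinery were lower in Vector, relative to library size. At an adjusted p under 0.05 (edgeR's quasi-likelihood test, Benjamini-Hochberg over all 15749 genes, the rule for every call below), 22 of the 43 genes were lower in Vector EDTA than in Vector NA and 0 were higher, where 8.98% of all tested genes were lower and 6.36% higher. The median log2 fold change of the 43 was −0.41, from −1.28 to 0.13, with 42 below 0, and the median of all genes was 0.00. Both EDTA libraries lay below both NA libraries for 40 of the 43, against 34.6% of all genes, and above them for 1, against 32.6%. By role, the calls took in 6 of 7 helicase activation and fork genes, 4 of the 6 MCM2-7 genes (MCM2, MCM5, MCM6, MCM7), 3 of 7 polymerase genes (POLA2, POLE, POLD1), all 3 chromatin genes and 3 of 4 nucleotide genes (RRM2, TYMS, TK1). They included 2 of 8 clamp and ligation genes (RFC2, LIG1), 1 of 4 regulators (CCNE1) and 0 of 4 licensing genes, of which 0 also had an unadjusted p under 0.05. Counts of calls given below with a library left out, or from another fit, lack the share of all genes in the same run. A change in such a count may therefore not be particular to the list.

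RRM2, the regulated subunit of ribonucleotide reductase, was at 261 and 268 CPM in Vector NA against 113 and 105 CPM in Vector EDTA. The 2 pairs were far apart, with a log2 fold change of −1.28 (SE 0.14, adjusted p = 0.000142). POLA2, the accessory subunit of polymerase α, was at 34.8 and 35.0 CPM in NA against 19.8 and 22.0 CPM in EDTA (−0.74, SE 0.11, adjusted p = 0.00135). UHRF1, which recruits the maintenance methyltransferase DNMT1 to newly copied DNA, was at 60.2 and 57.9 CPM in NA against 38.0 and 41.1 CPM in EDTA (−0.58, SE 0.10, adjusted p = 0.00197). TYMS, which makes thymidylate, was at 48.4 and 44.8 CPM in NA against 31.6 and 30.3 CPM in EDTA (−0.59, SE 0.10, adjusted p = 0.00257). In each of these 4 genes the EDTA libraries did not overlap the NA libraries, and these 4 of the 22 calls held whichever 1 library was left out, with a largest adjusted p of 0.0043, 0.0272, 0.0346 and 0.0482. Dropping Vector NA 1 gave 5 calls, Vector NA 2 gave 6, Vector EDTA 1 gave 7 and Vector EDTA 2 gave 14.

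Other genes of the list showed the same separation with calls that rested on more libraries. MCM10, which helps start the fork, was at 21.3 and 21.0 CPM in Vector NA against 11.8 and 12.5 CPM in Vector EDTA (−0.80, SE 0.17, adjusted p = 0.0079). Its call ended without Vector NA 1 (adjusted p = 0.0661), Vector NA 2 (0.0592) or Vector EDTA 1 (0.0865). MCM6 was at 82.7 and 80.3 CPM in NA against 56.6 and 56.8 CPM in EDTA (−0.52, SE 0.10, adjusted p = 0.00517), and CHAF1A, the large subunit of chromatin assembly factor 1, at 44.3 and 41.9 CPM in NA against 29.9 and 30.2 CPM in EDTA (−0.52, SE 0.09, adjusted p = 0.00311). Both lost the call without Vector NA 1, at adjusted p = 0.0581 and 0.0568. MCM2, another helicase subunit, was at 110 and 114 CPM in NA against 73.1 and 81.7 CPM in EDTA (−0.54, adjusted p = 0.00537), and missed the threshold without Vector NA 2 (0.0685) or Vector EDTA 1 (0.0748).

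The clamp and its nuclease did not pass in Vector. PCNA was at 99.6 and 103 CPM in NA against 99.5 and 97.7 CPM in EDTA, a log2 fold change of −0.04 (SE 0.09, adjusted p = 0.807), not past the threshold. FEN1, the flap endonuclease, was at 35.0, 35.6, 34.6 and 34.1 CPM in the same libraries (−0.04, SE 0.10, adjusted p = 0.82). CDC6 was the 1 gene of the list with a value above 0, at 39.1 and 37.1 CPM in NA against 42.7 and 40.9 CPM in EDTA (0.13, SE 0.11, adjusted p = 0.457).

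In B4-4, EDTA went with higher transcript levels of a smaller set. There, 12 of the 43 genes were higher with EDTA and 0 lower (9.88% of all genes were higher and 10% lower), the median was 0.25, from −0.32 to 1.14, and both EDTA libraries lay above both NA libraries for 26 genes (30.2% of all genes) and below them for 6 (29.3%). The calls were 4 of 7 fork genes (MCM10, GINS1, GINS3, CLSPN), 3 of 4 regulators (CCND1, CCNE1, CCNE2), RRM2 and TYMS, RFC3 and RPA2, and UHRF1; 0 of the 6 MCM2-7 genes and 0 of 7 polymerase genes passed. CCND1, which encodes cyclin D1, was at 131 and 141 CPM in B4-4 NA against 295 and 301 CPM in B4-4 EDTA (1.14, SE 0.14, adjusted p = 0.00046). UHRF1 was at 88.8 and 84.6 CPM in NA against 158 and 170 CPM in EDTA (0.92, SE 0.09, adjusted p = 0.000118). For both genes the treated pair was well above the untreated pair, and these 2 of the 12 calls held whichever library was left out (largest adjusted p = 0.00639 and 0.00435). RRM2 was at 294 and 222 CPM in NA against 410 and 418 CPM in EDTA (0.68, SE 0.14, adjusted p = 0.00645), and missed the threshold without B4-4 EDTA 1 (adjusted p = 0.0521), without B4-4 EDTA 2 (0.0554) and in a fit of the 2 groups alone (0.0833). Dropping B4-4 NA 1 gave 22 calls, 1 of them lower, B4-4 EDTA 1 gave 2 and B4-4 EDTA 2 gave 4, and a fit of B4-4 alone gave 2.

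In Addback the calls with EDTA were again all upward. Of the 43 genes 17 were higher and 0 lower (8.64% of all genes were higher and 8.29% lower), with a median of 0.33, from −0.05 to 1.05, and 36 genes had both EDTA libraries above both NA libraries (32% of all genes) and 0 had both below (29.8%). All 4 nucleotide genes passed, with 3 of 7 fork genes (MCM10, GINS2, GINS3), 3 of 8 clamp and ligation genes (PCNA, RFC2, RPA2), 2 of 7 polymerase genes (POLE2, POLD3), 2 of 3 chromatin genes (CHAF1A, UHRF1), CCNE1, E2F1 and MCM6. RRM2 was at 161 and 171 CPM in Addback NA against 299 and 389 CPM in Addback EDTA (1.05, SE 0.14, adjusted p = 0.000577). CCNE1, which encodes cyclin E1, was at 7.72 and 7.75 CPM in NA against 14.2 and 16.9 CPM in EDTA (1.01, SE 0.15, adjusted p = 0.00127). RPA2, a subunit of the single-strand binding complex RPA, was at 41.2 and 44.3 CPM in NA against 60.7 and 71.1 CPM in EDTA (0.62, SE 0.10, adjusted p = 0.00219). In all 3 the EDTA libraries lay above the NA libraries, and these 3 of the 17 calls held whichever library was left out (largest adjusted p = 0.0171, 0.0245 and 0.0448). CCND1 differed here from B4-4: it was at 190 and 191 CPM in NA against 152 and 226 CPM in EDTA, 1 library on each side, and was not called (−0.01, SE 0.14, adjusted p = 0.964). Of the 17 calls 3 were left when Addback NA 1 was dropped, 5 when Addback NA 2 was and 7 when Addback EDTA 2 was. Without Addback EDTA 2, the library whose description ends in L007, the calls of TK1 (adjusted p = 0.322), E2F1 (0.368), MCM6 (0.305), RFC2 (0.171), MCM10 (0.139), POLD3 (0.102), GINS2 (0.085) and RRM1 (0.0708) were among those lost, so that 2 of the 4 nucleotide genes, RRM2 and TYMS, were still called. The count was 11 without Vector NA 1, Vector NA 2, B4-4 EDTA 1 or B4-4 EDTA 2, and 26 without B4-4 NA 2.

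**Figure D2:**
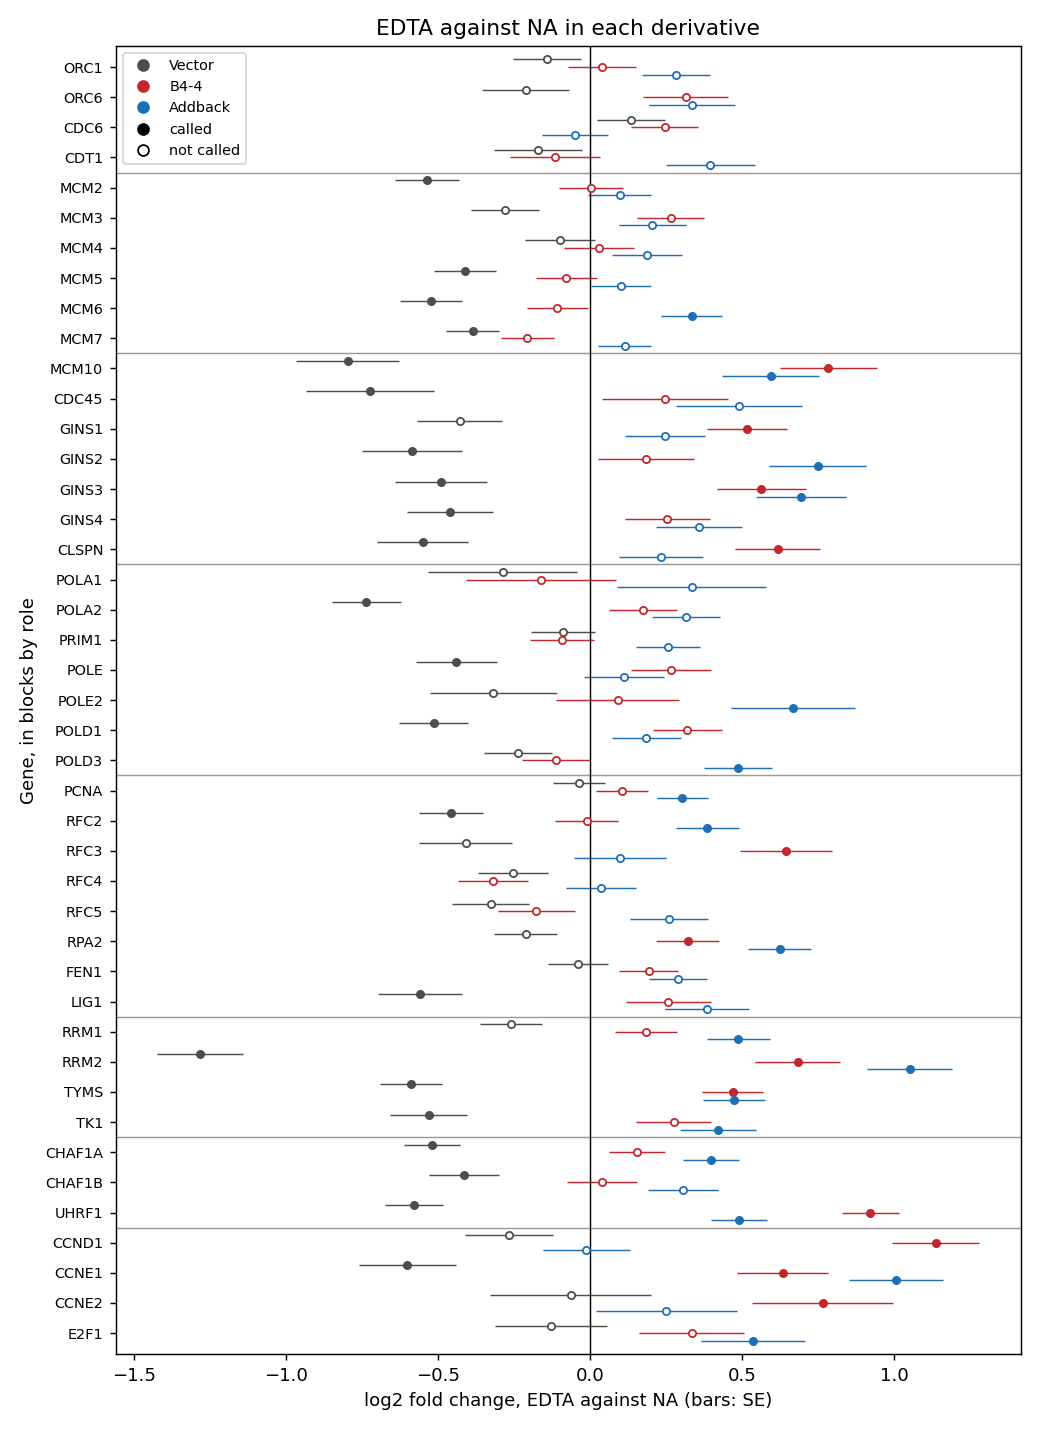
Log2 fold change of EDTA against NA for the 43 genes in Vector, B4-4 and Addback, with bars for the SE; filled points passed an adjusted p under 0.05 and open points did not. Vector points lie left of 0 for 42 genes, B4-4 points right of 0 for 33 and Addback points right of 0 for 41.

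Genes called lower with EDTA in Vector included 3 whose EDTA levels in the other derivatives ranged from near those of NA to above them. MCM2 was at 136 and 120 CPM in B4-4 NA and 123 and 133 CPM in B4-4 EDTA, and at 165 and 144 CPM in Addback NA and 167 and 164 CPM in Addback EDTA. POLD1, the catalytic subunit of polymerase δ, was at 59.0 and 63.5 CPM in Vector NA, 40.5 and 45.2 in Vector EDTA, 58.8 and 48.5 in B4-4 NA, 63.8 and 70.2 in B4-4 EDTA, 60.8 and 59.0 in Addback NA and 69.1 and 67.1 in Addback EDTA. RFC2, a clamp loader subunit, was at 55.0 and 53.7 CPM in Vector NA, 38.3 and 40.9 in Vector EDTA, 52.0 and 52.4 in B4-4 NA, 50.6 and 53.0 in B4-4 EDTA, 48.0 and 53.7 in Addback NA and 62.0 and 70.9 in Addback EDTA. Vector EDTA was the lowest group in all 3 of these genes, without overlap. RFC2 passed upward in Addback, and MCM2 and POLD1 passed in neither other derivative.

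The 3 EDTA comparisons share no library. Of the 22 genes lower in Vector, 7 were among the 12 higher in B4-4 (31.8% of the first list and 58.3% of the second). Of the same 22, 11 were among the 17 higher in Addback (50% and 64.7%). The 58.3% and 64.7% have to be read against the Vector list itself, which held 22 of the 43 genes. Whether either overlap was larger than that share alone would give was not tested. No such overlap over all tested genes is given for comparison. The genes called in all 3, downward in Vector and upward in the others, were 6: MCM10, GINS3, RRM2, TYMS, UHRF1 and CCNE1. In 11 genes EDTA gave no call in any derivative (ORC1, ORC6, CDC6, CDT1, MCM3, MCM4, POLA1, PRIM1, RFC4, RFC5 and FEN1), and all 4 licensing genes were among them. GINS3, a subunit of the GINS complex, was at 13.4 and 14.1 CPM in Vector NA, 11.03 and 8.55 in Vector EDTA, 18.2 and 17.1 in B4-4 NA, 25.2 and 26.9 in B4-4 EDTA, 12.8 and 15.3 in Addback NA and 22.2 and 23.2 in Addback EDTA. Its 2 treated libraries were therefore the lower pair in Vector and the higher pair in both other derivatives, without overlap. Its calls were among those that rested on single libraries: in Vector the adjusted p of 0.0472 rose to between 0.0571 and 0.243 under 9 of the alternatives, in B4-4 it rose from 0.0198 to 0.0967 without B4-4 EDTA 1 and 0.14 without B4-4 EDTA 2, and in Addback from 0.00852 to 0.118 without Addback NA 1.

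The difference between derivatives in the response to EDTA was tested directly. The EDTA effect was higher in B4-4 than in Vector for 25 of the 43 genes and lower for 0 (14.4% of all genes were higher and 12.6% lower), with a median difference of 0.54. It was higher in Addback than in Vector for 29 and lower for 0 (13.4% and 10.8% of all genes), with a median of 0.70. Both tests share the Vector libraries. All 7 fork genes and all 4 nucleotide genes passed in both, and 0 of 4 licensing genes passed in either, with ORC1 at 0.18 and 0.42 (adjusted p = 0.432 and 0.0708) and CDC6 at 0.11 and −0.18 (adjusted p = 0.633 and 0.431). For RRM2 the difference was 1.97 (SE 0.20, adjusted p = 5.3e-05) in B4-4 and 2.34 (SE 0.20, adjusted p = 1.41e-05) in Addback. UHRF1 had 1.4999 (SE 0.13, adjusted p = 2.32e-05) and 1.07 (SE 0.13, adjusted p = 0.000198), and CCNE1 1.24 (SE 0.22, adjusted p = 0.00185) and 1.61 (SE 0.22, adjusted p = 0.000365). CCND1 passed for B4-4 at 1.404 (SE 0.20, adjusted p = 0.000585) and did not pass for Addback at 0.25 (SE 0.20, adjusted p = 0.397). These calls held whichever library was left out, as did 14 of the 25 and 17 of the 29. Dropping Vector NA 1 gave 16 calls in the first test, Vector NA 2 gave 14, Vector EDTA 1 gave 16 and either B4-4 EDTA library gave 15; in the second, dropping Vector NA 2 gave 17.

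The widest gap between derivatives lay in the EDTA libraries. In B4-4 EDTA, 36 of the 43 genes were higher than in Vector EDTA and 0 lower (22.9% of all genes were higher and 20.4% lower), with a median of 0.88. In Addback EDTA, 37 were higher and 0 lower (16.1% and 14% of all genes), with a median of 0.97. The pairs did not overlap for 39 genes higher in B4-4 (38.9% of all genes) and 2 lower (38.2%), and for 41 higher in Addback (32.7%) and 0 lower (31.5%). Both comparisons use the same 2 Vector EDTA libraries. All MCM2-7, fork, chromatin and regulator genes passed in both. MCM10 was at 11.8 and 12.5 CPM in Vector EDTA, 52.2 and 52.9 CPM in B4-4 EDTA and 50.5 and 57.0 CPM in Addback EDTA, with log2 fold changes of 2.11 (SE 0.17, adjusted p = 3.5e-06) and 2.14 (SE 0.17, adjusted p = 7.3e-06). CLSPN, which links the fork to the checkpoint kinase CHK1, was at 10.6 and 12.1 CPM in Vector EDTA, 44.2 and 38.8 CPM in B4-4 EDTA and 38.8 and 49.2 CPM in Addback EDTA (1.87, SE 0.15, adjusted p = 3.1e-06, and 1.96, SE 0.15, adjusted p = 6.05e-06). E2F1, the founding activator E2F, was at 5.88 and 6.91 CPM in Vector EDTA, 15.6 and 17.4 CPM in B4-4 EDTA and 16.7 and 23.3 CPM in Addback EDTA (1.36, SE 0.18, adjusted p = 0.000104, and 1.64, SE 0.18, adjusted p = 5.89e-05). CCNE2, which encodes cyclin E2 and has the fewest counts of the list, was at 2.13 and 1.99 CPM in Vector EDTA, 7.81 and 6.71 CPM in B4-4 EDTA and 5.79 and 6.14 CPM in Addback EDTA (1.81, SE 0.24, adjusted p = 0.000123, and 1.53, SE 0.25, adjusted p = 0.00077). No Vector library overlapped either derivative in these 4 genes. With each library left out in turn, 33 of the 36 and 33 of the 37 calls held, and the counts stayed between 34 and 37 and between 34 and 40.

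In the NA libraries fewer genes were called, and the 12 called in B4-4 were all among the 36 called higher there in EDTA. Those 36 are most of the 43 genes, so much of this overlap follows from their share. Whether it was larger than that share gives was not tested, and no such overlap over all genes is given. B4-4 NA exceeded Vector NA for 12 of the 43 genes and was lower for 0 (3.38% of all genes were higher and 3.78% lower), with a median of 0.30. The pairs did not overlap for 26 genes higher in B4-4 (27.3% of all genes) and 5 lower (26.8%). FEN1 was at 35.0 and 35.6 CPM in Vector NA against 76.8 and 67.7 CPM in B4-4 NA (1.03, SE 0.10, adjusted p = 0.000204), and PCNA at 99.6 and 103 CPM in Vector NA against 191 and 179 CPM in B4-4 NA (0.87, SE 0.09, adjusted p = 0.000253). These 2 calls held whichever library was left out (largest adjusted p = 0.0104 and 0.0136). FEN1 and PCNA are shown library by library because of their values, outside the rule that chose the other genes. The other 10 calls (CDC6, MCM4, MCM5, MCM6, GINS1, GINS2, CLSPN, UHRF1, CCNE2 and E2F1) each ended without at least 1 library. The count was 2 without Vector NA 1 or Vector NA 2 and 20, with 5 lower, without B4-4 NA 1. A fit of the 2 groups alone gave 0 calls, with 20 genes at an unadjusted p under 0.05, and DESeq2 on all 12 libraries gave 14.

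Between Addback NA and Vector NA there were calls in both directions, but the share of lower calls was below that of all genes. There, 16 of the 43 genes were higher and 4 lower (17.9% of all genes were higher and 18.1% lower), with a median of 0.03, or 0.14 without Addback NA 1. The pairs did not overlap for 20 genes higher in Addback (39.9% of all genes) and 15 lower (39.5%), both near the shares of all genes. All 6 MCM2-7 genes were higher, from 0.32 to 0.65, of which MCM3 and MCM5 held whichever library was left out, while MCM2, MCM4, MCM6 and MCM7 lost the call without at least 1 of Vector NA 1, Vector NA 2, Addback NA 1 and Addback NA 2 (largest adjusted p = 0.116, MCM7 without Addback NA 1). CDC6, which loads the helicase, was at 39.1 and 37.1 CPM in Vector NA against 88.0 and 81.9 CPM in Addback NA (1.16, SE 0.11, adjusted p = 1.62e-05). FEN1 was at 76.2 and 77.7 CPM in Addback NA (1.12, SE 0.10, adjusted p = 7.98e-06), PCNA at 174 and 185 CPM (0.83, SE 0.09, adjusted p = 2.49e-05) and CCND1 at 190 and 191 CPM against 95.5 and 97.1 CPM in Vector NA (0.99, SE 0.14, adjusted p = 0.000296). In these 4 genes the Addback pair stood clear of the Vector pair. Going the other way, RRM2 was at 161 and 171 CPM in Addback NA against 261 and 268 CPM in Vector NA (−0.67, SE 0.14, adjusted p = 0.00291). RRM1, the large subunit of the same reductase, was at 150 and 151 CPM against 211 and 224 CPM (−0.53, SE 0.10, adjusted p = 0.00199). Both reductase calls held whichever library was left out (largest adjusted p = 0.0373 and 0.0288), and 14 of the 20 calls did.

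**Figure D3:**
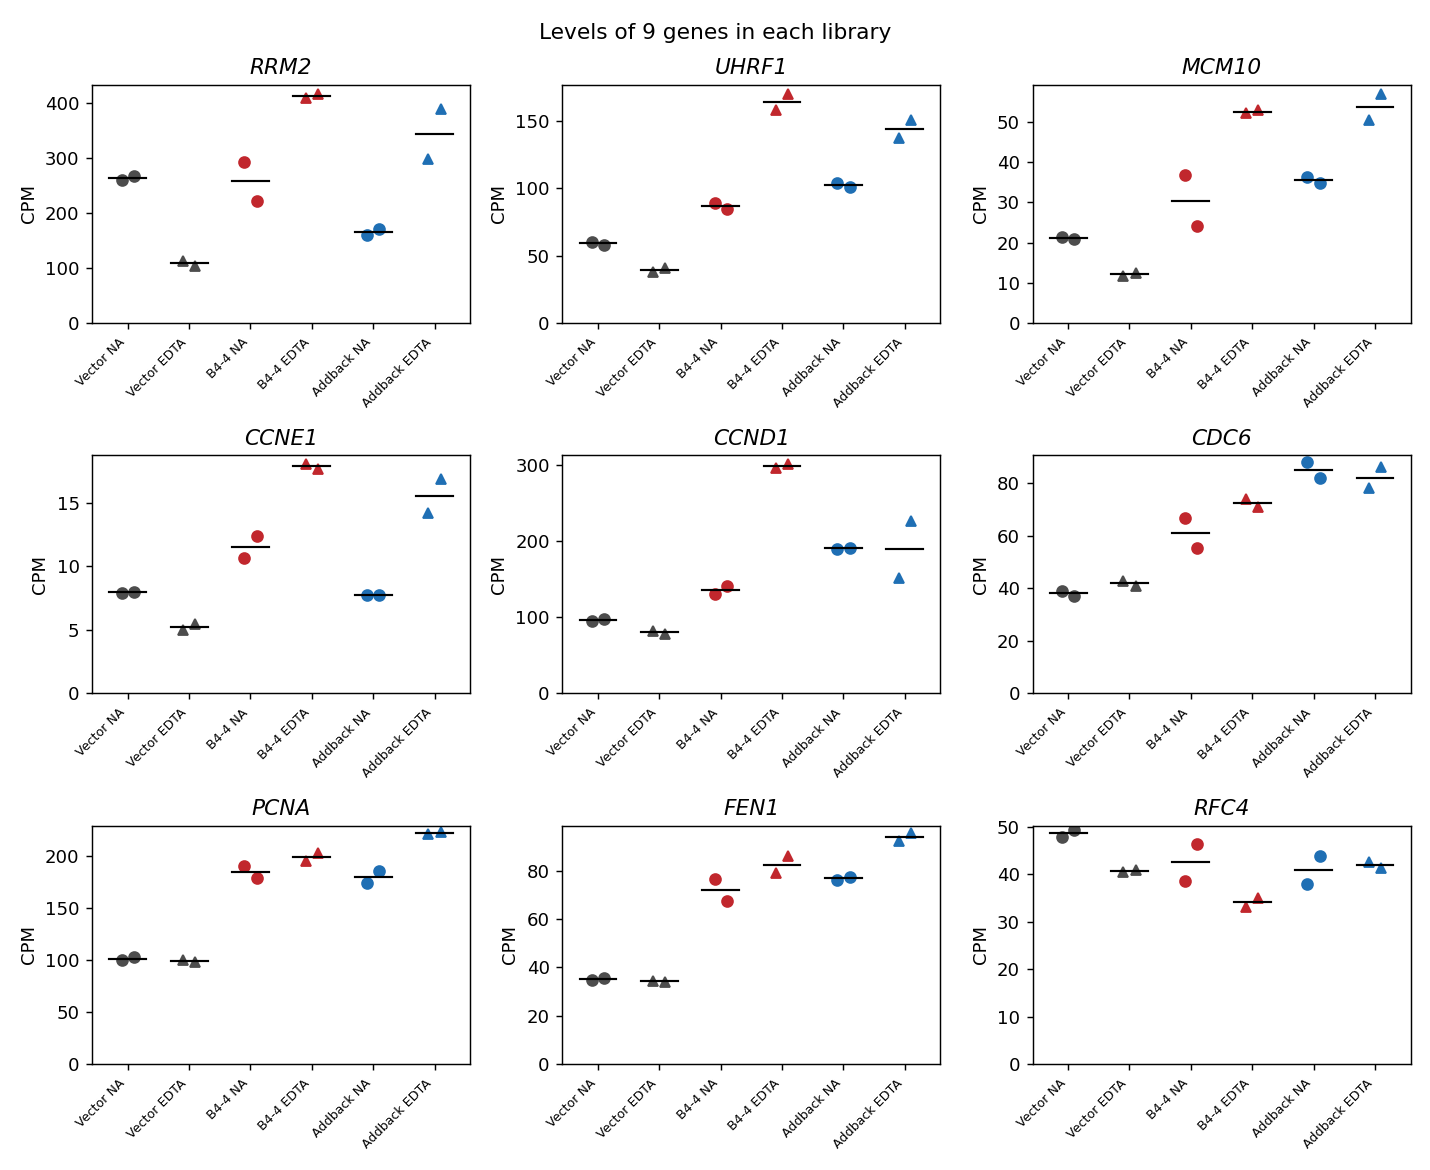
Levels of 9 genes by library, in CPM on linear axes from 0; circles are NA, triangles are EDTA, colours are the derivatives and black lines are means of 2 libraries. RRM2 and CCNE1 are lower with EDTA in Vector and higher with it in the others, PCNA and FEN1 split Vector from the other derivatives in both treatments, and RFC4 has its highest library in Vector NA.

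Few genes of the list were called between Addback and B4-4. In NA, 3 of the 43 genes were higher in Addback and 4 lower (11.3% of all genes were higher and 12.3% lower), with a median of −0.05 that was 0.02 without B4-4 NA 1; in EDTA, 4 were higher and 1 lower (6.54% and 7.54%), with a median of 0.10. In NA the pairs did not overlap for 10 genes higher in Addback (29.6% of all genes) and 15 lower (29.9%), and in EDTA for 20 higher (30%) and 10 lower (30%). CDC6 (0.48, adjusted p = 0.0091), CLSPN (0.47, adjusted p = 0.0307) and CCND1 (0.49, adjusted p = 0.0268) were higher in Addback NA, and RRM2, GINS2, POLD3 and CCNE1 were lower. In EDTA, MCM2, MCM6, MCM7 and RFC2 were higher in Addback, and CCND1 was lower (−0.66, SE 0.14, adjusted p = 0.00998), at 152 and 226 CPM against 295 and 301 CPM in B4-4. The calls of MCM2, MCM6 and RFC2 missed the threshold without Addback EDTA 2 (adjusted p = 0.0728, 0.139 and 0.175). CCND1 in Addback thus lay above B4-4 in 1 treatment and below it in the other. None of these 12 calls held whichever library was left out. In NA, dropping B4-4 NA 1 gave 15 calls, Addback NA 2 gave 3 and Addback NA 1 gave 0, where 7 genes had an unadjusted p under 0.05 and DESeq2 on all libraries gave 7 calls. In EDTA, dropping B4-4 EDTA 1 or B4-4 EDTA 2 gave 0 calls by edgeR (7 and 8 genes at an unadjusted p under 0.05, and 5 calls by DESeq2 on all libraries). Dropping either Vector NA library gave 2, either Addback NA library or Addback EDTA 1 gave 3, and either B4-4 NA library gave 11. A fit of the 2 groups alone gave 1 and 3 calls.

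Of the 43 genes, 3 ran against the block. RFC4, a subunit of the clamp loader, had a correlation of −0.39 with the mean of the other genes. It was at 47.9 and 49.4 CPM in Vector NA, 40.6 and 41.0 in Vector EDTA, 38.6 and 46.5 in B4-4 NA, 33.1 and 35.1 in B4-4 EDTA, 37.9 and 43.9 in Addback NA and 42.7 and 41.3 in Addback EDTA, so that its highest library was Vector NA 2 and its lowest B4-4 EDTA 1. PRIM1, the catalytic primase subunit, had −0.30 and stayed between 26.4 and 33.8 CPM in all 12 libraries, again highest in Vector NA 2. CDT1, which brings the helicase to the origin, had −0.08. It was at 79.7 and 81.0 CPM in Vector NA, 64.7 and 78.0 in Vector EDTA, 65.3 and 89.0 in B4-4 NA, 64.6 and 77.7 in B4-4 EDTA, 54.9 and 59.2 in Addback NA and 76.1 and 74.0 in Addback EDTA. Vector NA lay above all 3 EDTA groups and overlapped B4-4 NA, and Addback NA lay below the other 10 libraries and was called lower than Vector NA (−0.49, SE 0.15, adjusted p = 0.0206). That call ended without Vector NA 1 (adjusted p = 0.0869), Vector NA 2 (0.0993), Addback NA 1 (0.13) or Addback NA 2 (0.0636). RRM1 had a correlation of 0.24 and POLA1 of 0.29. ORC1, POLA1, PRIM1 and RFC4 were called in none of the 11 contrasts, and ORC1, the largest subunit of the origin recognition complex, stayed between 37.4 and 48.0 CPM. LIG1, which seals Okazaki fragments, was at 49.999 and 52.0 CPM in Vector NA, 34.5 and 34.7 in Vector EDTA, 50.006 and 35.7 in B4-4 NA, 50.9 and 51.7 in B4-4 EDTA, 41.5 and 36.1 in Addback NA and 51.6 and 49.7 in Addback EDTA. Its level in the EDTA libraries of both other derivatives was therefore that of Vector NA, not above it.

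Some of these counts may hold reads of a neighbour. In GENCODE 29, 11 of the 43 genes overlap another gene with counts above 10% of their own: CCNE2 (INTS8 and NDUFAF6), CHAF1A (UBXN6), CHAF1B (MORC3), FEN1 (FADS2 and TMEM258), GINS2 (GSE1), MCM2 (TPRA1), POLA1 (EEF1B2P3), PRIM1 (NACA), RFC4 (EIF4A2), RFC5 (WSB2) and TYMS (ENOSF1). These overlaps are between whole gene spans, introns included, so the ratio of counts does not measure shared reads. No source used here gives the strand setting of the counting, and how many reads came from a partner was not measured. RRM2 (chromosome 2, 10120698 to 10131419), UHRF1 (chromosome 19, 4903080 to 4962154), MCM10 (chromosome 10, 13161554 to 13211104) and CCND1 (chromosome 11, 69641087 to 69654474; all GRCh38) are not among the 11.

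Genes with and without an E2F word had near medians under EDTA in Vector: −0.43 over the 20 with a word, 11 of them called, and −0.44 over the 16 without, 9 of them called. All of these calls were lower (8.98% of all genes were lower). In Addback NA against Vector NA the medians were 0.33 and −0.08, with 12 of 20 and 4 of 16 called in either direction (17.9% of all genes were higher and 18.1% lower). In B4-4 NA against Vector NA they were 0.35 and −0.01, with 8 of 20 and 1 of 16 called, all higher (3.38% of all genes). In EDTA the medians were 0.93 and 0.78 for B4-4 against Vector and 1.11 and 0.71 for Addback against Vector. There 18 of 20 and 11 of 16 were called in B4-4, and 18 of 20 and 12 of 16 in Addback, all higher (22.9% and 16.1% of all genes). Both NA comparisons share the Vector NA libraries, both EDTA comparisons share the Vector EDTA libraries, and the difference between the sets was not tested. RRM2 and MCM10, which have no such word in their windows, are in the second set, and UHRF1, POLA2, CDC6 and PCNA in the first.

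The genes around the list were taken from 4 lists of known function. Of 23 other replication genes, 9 were lower with EDTA in Vector and 0 higher (8.98% and 6.36% of all genes). With EDTA, 3 were higher in B4-4, near the share of all genes (9.88%), and 8 in Addback (8.64%), with 0 lower in either. In EDTA, 14 were higher and 2 lower in B4-4 than in Vector (22.9% and 20.4% of all genes), and 13 higher and 0 lower in Addback (16.1% and 14%). The first count was 0 without Vector NA 1, the second 0 without B4-4 EDTA 1 and the third 1 without Addback NA 1. In EDTA the 14 were 9 without B4-4 EDTA 1, the 2 were 0 without B4-4 EDTA 2 and the 13 were 8 without Vector EDTA 1. GMNN, which encodes geminin, the inhibitor of CDT1, averaged 38.2 ± 0.08 CPM in Vector EDTA, 63.7 ± 2.66 in B4-4 EDTA and 84.5 ± 15.01 in Addback EDTA (SD, n = 2), log2 fold changes of 0.74 (SE 0.12, adjusted p = 0.000541) and 1.15 (SE 0.12, adjusted p = 5.54e-05). Of 14 nucleotide and S phase chromatin genes, 5 were lower with EDTA in Vector (8.98% of all genes; 0 without Vector NA 1), and 10 were higher in each of the other derivatives than in Vector in EDTA (22.9% of all genes in B4-4 and 16.1% in Addback), among them DTL, HELLS and ASF1B.

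Control genes of G1/S include activators and inhibitors of the transition. Of 24 tested cyclins, kinases, inhibitors, pocket proteins and E2Fs, 5 were lower and 3 higher with EDTA in Vector (8.98% and 6.36% of all genes), 5 higher and 4 lower in B4-4 (9.88% and 10%), and 4 higher and 2 lower in Addback (8.64% and 8.29%). The 2 lower in Addback are near the share of all genes. Leaving out 1 library took the Vector counts to as few as 3 lower (without Vector NA 2) and 1 higher (without Vector NA 1), the B4-4 counts to 3 higher and 2 lower (without B4-4 EDTA 1), and the Addback counts to 2 higher (without Addback NA 2) and 0 lower (without Addback NA 1). E2F2, an activator E2F, averaged 14.9 ± 1.21 CPM in Vector NA and 3.01 ± 0.32 in Vector EDTA (−2.31, SE 0.22, adjusted p = 6.03e-05). E2F8, a repressor E2F that is itself a target, averaged 6.82 ± 0.26 and 0.89 ± 0.38 CPM (−2.94, SE 0.40, adjusted p = 0.000591). CDC25A, the phosphatase that activates CDK2, averaged 20.1 ± 0.82 and 9.24 ± 0.09 CPM in Vector (−1.12, SE 0.16, adjusted p = 0.000764), 22.1 ± 2.49 and 57.3 ± 0.41 CPM in B4-4 (1.38, SE 0.15, adjusted p = 0.000192) and 19.7 ± 2.48 and 39.0 ± 8.24 CPM in Addback (0.99, SE 0.15, adjusted p = 0.00132), with NA first (SD, n = 2 throughout). CDKN1B, which encodes the CDK2 inhibitor p27, went from 41.4 ± 3.78 to 88.6 ± 16.7 CPM in Vector (1.10, SE 0.15, adjusted p = 0.000618) and from 65.3 ± 6.84 to 32.7 ± 0.27 CPM in B4-4 (−0.999, SE 0.15, adjusted p = 0.00135). These calls held whichever library was left out. In Addback, CDKN1B averaged 92.8 ± 2.76 CPM in NA and 70.3 ± 12.4 in EDTA. By group means alone, some other activators and inhibitors differed in the opposite directions in Vector, and whether they passed the threshold is not given here. The activators MYC and CDK6 averaged 222 ± 9.10 and 91.6 ± 4.37 CPM in NA against 532 ± 15.6 and 132 ± 25.7 in EDTA. The inhibitors CDKN1A and CDKN1C averaged 253 ± 2.68 and 10.3 ± 0.81 CPM in NA against 176 ± 18.2 and 5.06 ± 0.74 in EDTA. CCND2, which encodes cyclin D2, was lower in Addback than in B4-4 in NA (−1.68, SE 0.15, adjusted p = 2.32e-05) and in EDTA (−2.53, SE 0.16, adjusted p = 2.21e-06), where CCND1 was higher and lower respectively.

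Over 24 genes of G2 and mitosis, most calls with EDTA were downward in Vector and upward in the other derivatives, and all calls for Addback against Vector in NA were downward. With EDTA, 18 of 24 were lower in Vector (8.98% of all genes), 13 higher and 1 lower in B4-4 (9.88% and 10%), and 16 higher in Addback (8.64%), with medians of −0.52, 0.40 and 0.45. Leaving out 1 library took these counts to 10 at the least in Vector (without Vector NA 1), 4 in B4-4 (without B4-4 EDTA 2) and 5 in Addback (without Addback NA 1). In NA, by contrast, 11 of the 24 were lower and 0 higher in B4-4 than in Vector (3.78% and 3.38% of all genes), with a median of −0.37, and 21 lower and 0 higher in Addback (18.1% and 17.9%), with a median of −0.69, beside medians of 0.30 and 0.03 for the 43 replication genes (the second 0.14 without Addback NA 1). The count of 11 was 1 without Vector NA 1, and that of 21 was 15 without Addback NA 1. PLK1, a mitotic kinase, averaged 232 ± 3.72 CPM in Vector NA, 155 ± 20.6 in B4-4 NA and 64.6 ± 1.15 in Addback NA (SD, n = 2; Addback against Vector −1.84, SE 0.10, adjusted p = 2.15e-07), while FEN1, PCNA and CDC6 were higher in Addback in the same libraries. The 2 lists are set side by side and the difference between them was not tested. In EDTA, 18 of the 24 were higher and 1 lower in B4-4 than in Vector (22.9% and 20.4% of all genes), with a median of 0.56, and 13 were higher and 1 lower in Addback (16.1% and 14%), with a median of 0.40.

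**Figure D4:**
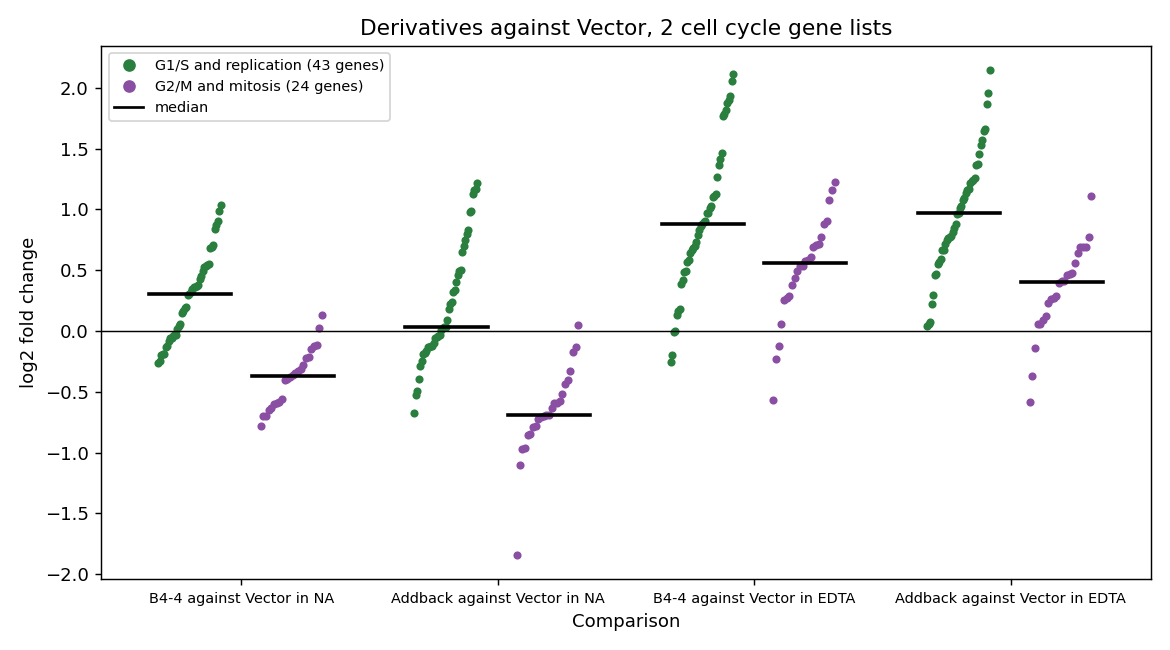
Log2 fold changes of the 43 replication genes (green) and 24 G2/M genes (purple) for B4-4 and Addback against Vector in NA and in EDTA; each point is 1 gene, sorted within its column, and black bars are medians. In NA the green medians are 0.30 and 0.03 and the purple ones −0.37 and −0.69, and in EDTA all 4 medians lie above 0.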

How the data were processed

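For each of the 12 libraries the authors deposited unnormalised read counts by Ensembl gene identifier. Per the labels' protocols, 250 ng of RNA went into a stranded polyA kit, giving 300 bp inserts that were read as 150 bp pairs. The submitters' processing notes name TopHat2 2.1.1, SAMtools 1.4.1 and featureCounts 1.5.3, and the builds GRCh38, hg19 and hg38 with no roles. No source used here gives the annotation release or the strand setting.

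The tests used edgeR 4.0.16 under R 4.3.3: filterByExpr over the 6 groups (15749 genes kept, at least 99.87% of each total), TMM scaling, robust quasi-likelihood fits of 6 group means to all 12 libraries, and 11 contrasts, called at a Benjamini-Hochberg adjusted p under 0.05. SEs are the fold change divided by the root of F. Log2 CPM used a prior count of 2. The alternatives were DESeq2 size factors, no filter, DESeq2 1.42.0, a replicate block, the compared groups alone, and each library left out, where a lone library is assumed to vary like the other groups. The 43 genes and all lists were chosen with earlier results of these data known. Values in every library are given for the 2 genes per role with the smallest EDTA p, the 4 regulators, and outliers (called against the median gene, or a correlation under 0). Up to 4 genes per surrounding list with the smallest p are named. MYC, CDK6, CDKN1A and CDKN1C were added outside this rule for their direction. On simulated counts for EDTA in Vector (15238 genes), the fit found 44% of changes by 1.5-fold and 90% of those by 2-fold, with 12 of 177 calls false. For the difference of EDTA effects in B4-4 (15251 genes) the shares were 2% and 66%. In both runs 50 genes were changed at each fold, none of low CPM, and the other genes were equal in all groups. Far more genes were called in the data (1414 lower and 1002 higher for EDTA in Vector). The shares found in the data may therefore differ from these. Positions are 1-based on GRCh38 from GENCODE 29, and promoters are from RefSeq. Depth limits precision most for CCNE2 and POLE2.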

Additional observations from a re-analysis of the deposited data

Results flagged for a closer look

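The test of the difference in EDTA effect between derivatives passed for 25 of the 43 genes in B4-4 against Vector and for 29 in Addback against Vector, always upward. Of all genes, 14.4% were higher and 12.6% lower in the first test, and 13.4% and 10.8% in the second. Among the genes followed library by library, the differences for B4-4 on the log2 scale were 1.97 for RRM2, 1.58 for MCM10, 1.4999 for UHRF1, 1.404 for CCND1, 1.24 for CCNE1, 1.17 for CLSPN, 1.06 for TYMS and 1.05 for GINS3. They were 0.91 for POLA2, 0.83 for POLD1, 0.82 for LIG1, 0.67 for CHAF1A, 0.54 for MCM2, 0.53 for RPA2, 0.45 for RFC2, 0.44 for RRM1 and 0.42 for MCM6. For Addback they were 2.34 for RRM2, 1.61 for CCNE1, 1.39 for MCM10, 1.19 for GINS3, 1.07 for UHRF1, 1.06 for TYMS, 1.05 for POLA2, 0.94 for LIG1 and 0.92 for CHAF1A. The others were 0.86 for MCM6, 0.84 for RFC2, 0.84 for RPA2, 0.79 for CLSPN, 0.75 for RRM1, 0.70 for POLD1 and 0.63 for MCM2. Both tests use the same 4 Vector libraries.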

How the results depend on the processing

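No followed call changed sign under any alternative run. Of 135 calls of genes followed library by library, 57 were lost without at least 1 library and 28 under another alternative (24 of them, at least in part, when only the compared groups were fitted, 8 with DESeq2, 4 with no filter, 3 with DESeq2 size factors and 2 with the replicate block). Replicates with the same number did not deviate together across genes as a whole (r from −0.05 to 0.07 over 15 pairs of groups). With 1 pair of libraries per group, this cannot exclude a shared step that touched few genes or had a small effect. With the replicate block the counts of called genes were 19 for EDTA in Vector, 12 in B4-4 and 18 in Addback, 36 and 37 for B4-4 and Addback against Vector in EDTA, and 25 and 31 for the differences of EDTA effects, and no count moved by over 1.5 times. With the compared groups alone the counts were 2 for EDTA in B4-4, 0 for B4-4 against Vector in NA, and 1 and 3 for Addback against B4-4 in NA and EDTA. The median for B4-4 against Vector in EDTA was 0.86 with DESeq2 size factors and 0.86 with DESeq2. Leaving out 1 library at a time, the counts of called genes ran from 5 to 27 for EDTA in Vector, 2 to 22 in B4-4 and 3 to 26 in Addback, from 2 to 20 and 34 to 37 for B4-4 against Vector in NA and EDTA, from 0 to 15 and 0 to 11 for Addback against B4-4, and from 14 to 24 and 34 to 40 for Addback against Vector. For the differences of EDTA effects they ran from 14 to 28 in B4-4 and 17 to 38 in Addback. In the same order, the medians of the 43 genes ran from −0.41 to −0.33, 0.12 to 0.30, 0.28 to 0.38, 0.18 to 0.34, 0.82 to 0.88, −0.12 to 0.02, 0.033 to 0.14, 0.023 to 0.14, 0.89 to 1.09, 0.49 to 0.63 and 0.60 to 0.84. The causes were not tested. The share of all genes called in each of these runs is not given. Whether a change in these counts was particular to the list, or followed the number of all genes called, therefore cannot be read from them. Fewest counts lay behind CCNE2, POLE2 and CCNE1.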
